A study of Mus musculus with 10 samples.

Results

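Solute carriers are the membrane transporters that move amino acids, sugars, ions, metals, vitamins and other small solutes across the cell surface and the membranes of organelles. The 172 genes described here have a mouse symbol of the form Slc, a family number, the letter a and a member number, and a deposited value of 9 or more in at least 2 of the 10 libraries. They were 172 of 225 genes with such a symbol, and of 14854 genes in all. The rule thus used the level of each gene and no comparison between lineages, but a gene that passed through 1 lineage alone had to differ, so counts over the members are descriptions. The symbol pattern takes in 3 genes that carry no solute themselves, Slc4a1ap, Slc7a6os and the scaffold protein gene Slc9a3r2, and it leaves out 28 other symbols that begin with Slc, such as the Slco organic anion carriers.

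RNA was sequenced from cells of the adult mouse lung mesenchyme that had been separated by flow cytometry into 5 lineages, with 2 libraries for each. Axin2:Pdgfra, Axin2, Pdgfra and Negative cells all came from mice with Axin2CreERT2, tdT and PdgfraEGFP, so each of these 4 groups, the Negative cells included, carries all of those alleles. Wnt2 cells came from mice with Wnt2CreERT2 and R26REFYP, and for them mouse line and lineage cannot be told apart. CreERT2 is a recombinase that acts in cells using the driver gene once tamoxifen is given, and PdgfraEGFP marks cells that use the platelet-derived growth factor receptor gene Pdgfra. The labels give neither a tamoxifen schedule nor an age in weeks, and nothing in them tells if paired libraries stem from different animals. The p-values therefore cover no more than the spread among these libraries, part or all of which could be technical. With the 4 groups of 1 line, the effect of the Pdgfra label was taken as the mean of Axin2:Pdgfra and Pdgfra minus the mean of Axin2 and Negative, 4 libraries against 4, and it splits into Axin2:Pdgfra minus Axin2 and Pdgfra minus Negative, which share no library.

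Most solute carriers are driven by gradients rather than by ATP. Some couple their cargo to sodium, which the sodium pump keeps low inside the cell, some exchange one solute for another, and others let a solute run down its own gradient. The family number groups proteins by sequence and, for the most part, by cargo, so members are read here by cargo class. In the lung the best known member is Slc34a2, the sodium-phosphate cotransporter of alveolar type 2 epithelial cells. Fibroblasts use amino acid carriers to supply collagen synthesis, and osmolyte carriers to hold cell volume.

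Values are on a log2 scale that was inferred from the files, on which a step of 1 is a factor of 2. Depth per library is unknown because the files hold no counts, so no counting interval can be given. All 10 libraries had medians of 9.1 to 9.11 and the same highest value, as quantile normalization leaves them. The lowest value of a library was shared by 310 to 2728 genes, 2.09% to 18.4% of all, with the largest share in Negative 2, and 24 members were at that value in at least 1 library. Pdgfra itself was listed at 14.64 to 15.21 in the 4 libraries with the Pdgfra label, at 12 to 13.49 in the 4 without it and at 16.05 and 16.25 in Wnt2, so those 2 sets did not overlap. Axin2, in contrast, ranged from 9.54 to 12.04 in the 4 libraries with the Axin2 label and from 10.07 to 11.06 in the other 4 of that line. Xist was low and Ddx3y high in Negative 2 and Wnt2 2, and Ddx3y was at 8.15 in Wnt2 1, so libraries of these groups also differed in sex-linked transcripts.

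Members ranged from even to strongly lineage-dependent. Of the 172, 56 were at 9 or more in all 10 libraries and 121 in at least 5. Another 21 reached 9 in exactly 2 libraries, and in 6 of those the pair was both libraries of a single lineage. Just inside the threshold lay Slc18a2, Slc39a11, Slc37a2 and Slc25a32, whose second highest values were 9.001, 9.002, 9.013 and 9.024, and just outside it lay Slc9a3r1, Slc23a1, Slc25a45 and Slc25a29 at 8.98, 8.94, 8.914 and 8.88. The range of the 5 group means had a median of 2.23 over the members and 1.85 over the 10108 genes that met the same level rule. The spread between the 2 libraries of a group was wider as well, with a median pooled SD of 0.96 over the members and 0.76 over those genes.

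**Figure D1:**
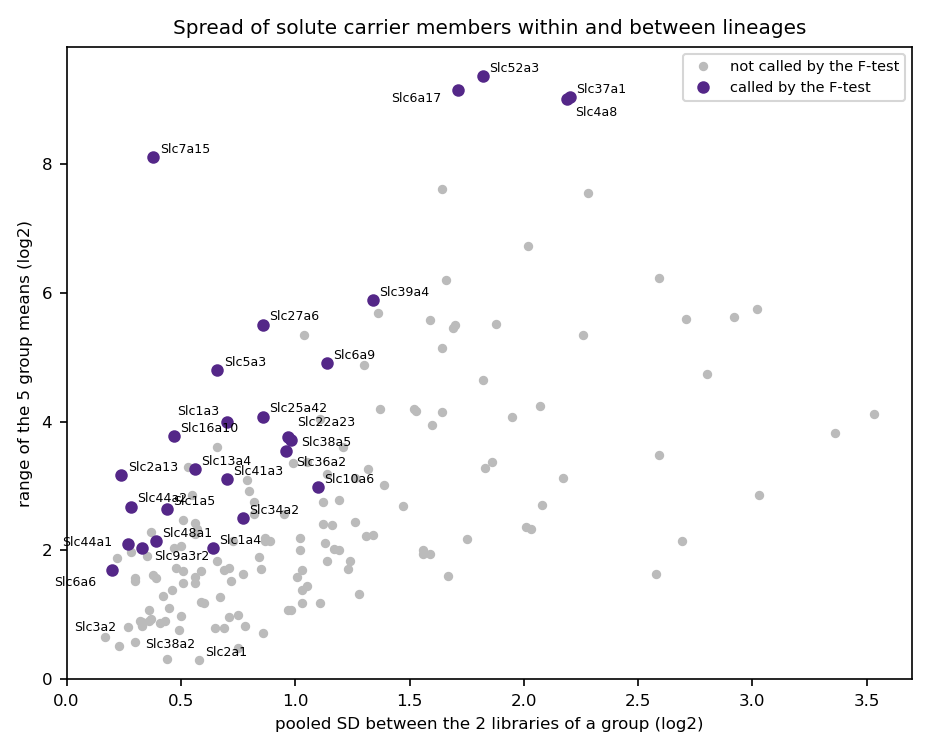
Each point is 1 of 172 members, with the pooled SD between the 2 libraries of a group on the x axis and the range of the 5 group means on the y axis, both in log2 units. The 27 members called by the F-test (purple) lie towards the upper left, from Slc6a6 with a range of 1.7 and an SD of 0.2 upwards, while Slc2a1 has a range of 0.29. The topmost, Slc52a3, has both Axin2:Pdgfra libraries at the lowest value, so the size of its range is set in part by that floor.

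One limma model over all 10 libraries, with Benjamini-Hochberg adjustment over 14177 genes, gave every test below, and a member is called where the adjusted p is under 0.05. An F-test over the 5 lineages called 27 members, 15.7% of 172, beside 8.2% of all genes tested and 11.3% of those with the same level rule. Across the Pdgfra label 17 members were called higher and 7 lower. The backgrounds for these are 3.55% and 2.93% of all genes tested, and 4.75% and 3.78% of genes with the same level rule. The median difference was 0.22 over the members and 0 over all genes tested. These counts depend on how limma estimates the spread: without a trend in the variance and its robust fit, the F-test called 1 member and the Pdgfra label 8. They also depend on single libraries, since the F-test called 16 without Axin2 2, 14 without Pdgfra 1, 13 without Wnt2 1 and 17 without Wnt2 2, and the Pdgfra label called 13 higher and 2 lower without Axin2 1 and 11 and 3 without Pdgfra 2. The lower direction was the less stable, with 3 lower beside 21 higher without Negative 0, and 4 lower without Axin2:Pdgfra 1, Axin2 2 or Negative 2. In bulk samples of sorted cells, fewer cells of a type and less RNA per cell cannot be told apart, which holds for every difference here.

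Transporters of amino acids, the largest class, made up the largest part of what was called higher with the Pdgfra label. Of 32 members in the amino acid families, 8 were called higher and 1 lower. The median difference of the class was 0.22, the same as over all 172 members. In the class of fatty acids, bile acids and choline 4 of 12 were called higher. All 14 of 14 fibroblast markers were higher across the same label, with a median difference of 2.11. One of them is Pdgfra, the gene of the reporter by which the cells were sorted. The log2 of the summed level of the list was 18.02 to 18.75 in the 4 labelled libraries and 16.36 to 17.38 in the others. In such a sum the most abundant markers weigh most. Lum was the one fibroblast marker at the lowest value, in Negative 2. The part of fibroblast content in the amino acid result was not tested.

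Slc1a3, a sodium-coupled carrier of glutamate and aspartate, was listed at 12.52 and 11.77 in Axin2:Pdgfra, 10.19 and 9.7 in Axin2, 11.66 and 12.6 in Pdgfra, 9.04 and 7.25 in Negative and 12.08 and 11.91 in Wnt2. Both libraries of Axin2:Pdgfra, Pdgfra and Wnt2 thus stood above every library of Axin2 and Negative. The difference across the Pdgfra label was 3.09 ± 0.46 (SE, adjusted p = 0.00112), and the call held in 10 of 10 fits that each left out 1 library, with a largest adjusted p of 0.0151. The level in Negative was the lowest of the 5 groups, -3.26 ± 0.54 (SE, adjusted p = 0.00359) against the mean of the other 3 groups of that line.

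Slc1a5, the exchanger of glutamine and other neutral amino acids, showed the same division of groups, at 11.86 and 12.69 in Axin2:Pdgfra, 10.21 and 10.07 in Axin2, 12.92 and 12.65 in Pdgfra, 10.59 and 9.98 in Negative and 11.42 and 12.33 in Wnt2. It was called in both parts of the Pdgfra label, by 2.13 ± 0.51 (SE, adjusted p = 0.0443) in Axin2:Pdgfra over Axin2 and by 2.5 ± 0.51 (SE, adjusted p = 0.0176) in Pdgfra over Negative. In fits that each left out 1 library these parts ranged from 1.72 to 2.55 and from 2.19 to 2.8. The first call held in 2 of 10 such fits and the second in 7 of 10. The 4 libraries with the label did not overlap the 4 without it. Slc1a4, a neutral amino acid exchanger of the same family that carries serine, lay at 13.68 and 12.57 in Axin2:Pdgfra, 10.77 and 11.9 in Axin2, 11.89 and 12.85 in Pdgfra, 11.27 and 10.9 in Negative and 12.77 and 13.45 in Wnt2. Its groups overlapped by a single library each, Pdgfra 1 at 11.89 against Axin2 2 at 11.9, and its difference of 1.54 ± 0.37 (SE, adjusted p = 0.0228) held in 6 of 10 of the fits without 1 library. It was lost without Axin2:Pdgfra 1, Axin2 1, Pdgfra 2 or Negative 2, with an adjusted p of up to 0.115. The other 2 of the 5 Slc1 members, the glutamate carriers Slc1a1 and Slc1a2, were not called by the F-test (adjusted p = 0.698 and 0.113).

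Taurine is an osmolyte and conjugation substrate, and its sodium- and chloride-coupled carrier Slc6a6 had the smallest F-test p of the amino acid class. Its values were 14.4 and 14.94 in Axin2:Pdgfra, 12.95 and 13.03 in Axin2, 14.68 and 14.47 in Pdgfra, 13.44 and 13.71 in Negative and 14.74 and 14.65 in Wnt2, with a pooled SD of 0.2 between libraries of a group. The step was small but even, 1.34 ± 0.19 (SE, adjusted p = 0.000785), and the 2 sets of 4 did not overlap. Axin2:Pdgfra exceeded Axin2 by 1.68 ± 0.27 (SE, adjusted p = 0.00484), a call lost without Axin2:Pdgfra 2, Axin2 1 or Axin2 2 (adjusted p up to 0.0664).

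Slc36a2, a proton-coupled carrier of small amino acids such as glycine and proline, was at 12.37 and 11.78 in Axin2:Pdgfra, 8.14 and 10.49 in Axin2, 12.35 and 11.96 in Pdgfra, 10.04 and 8.29 in Negative and 12.62 and 12.77 in Wnt2. Both Wnt2 libraries were above all others, and the labelled libraries were above all 4 without the label. Across the Pdgfra label Slc36a2 differed by 2.88 ± 0.53 (SE, adjusted p = 0.0044), in 10 of 10 fits without 1 library. Slc38a5, a sodium-coupled carrier of glutamine and other amino acids that also moves protons, was at 12.64 and 13.04 in Axin2:Pdgfra, 9.98 and 11.02 in Axin2, 11.35 and 11.98 in Pdgfra, 10.52 and 7.73 in Negative and 12.47 and 12.08 in Wnt2. Here the highest values were in Axin2:Pdgfra and the lowest in Negative 2, and the difference of 2.44 ± 0.52 (SE, adjusted p = 0.0115) was lost without Axin2 1 or Pdgfra 2 (adjusted p up to 0.0684).

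Slc43a3 belongs by number to an amino acid family but is known as a carrier of purine nucleobases. It was listed at 14.68 and 14.98 in Axin2:Pdgfra, 13.79 and 13.11 in Axin2, 15 and 14.57 in Pdgfra, 13.17 and 14.21 in Negative and 14.13 and 14.66 in Wnt2, so the lowest labelled library, at 14.57, lay above the highest unlabelled one, at 14.21. Its difference of 1.24 ± 0.25 (SE, adjusted p = 0.00894) was lost without Axin2 2 or Pdgfra 1 (adjusted p up to 0.0592). Slc7a15 entered the list through Wnt2 alone, at 9.71 and 9.81 in Wnt2, 7.26 and 8.23 in Axin2:Pdgfra, 1.55 and 1.75 in Axin2, 8.5 and 8.58 in Pdgfra and 3.36 and 2.67 in Negative. Both Axin2 libraries were at the lowest value of their library, as was Negative 2, so no fold is given against them. The fitted difference of 5.81 ± 1.1 (SE, adjusted p = 0.00525) shrank to 2.14 and lost its call (adjusted p = 0.0614) when values under 6 were raised to 6.

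The member of these families that was lower across the label was Slc6a9, a glycine carrier, at 10.49 and 9.16 in Axin2:Pdgfra, 11.53 and 11.95 in Axin2, 5.45 and 8.23 in Pdgfra, 10.64 and 9.72 in Negative and 7.4 and 8.96 in Wnt2. The sets overlapped, with Axin2:Pdgfra 1 at 10.49 above Negative 2 at 9.72, and the call of -2.63 ± 0.72 (SE, adjusted p = 0.044) held in only 1 of 10 fits without 1 library, that without Pdgfra 2 (adjusted p up to 0.156 in the others). In the gene annotation, Slc6a9 shares 27.8% of its exon bases with Ccdc24 on the opposite strand, and without strand the 2 cannot be told apart.

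**Figure D2:**
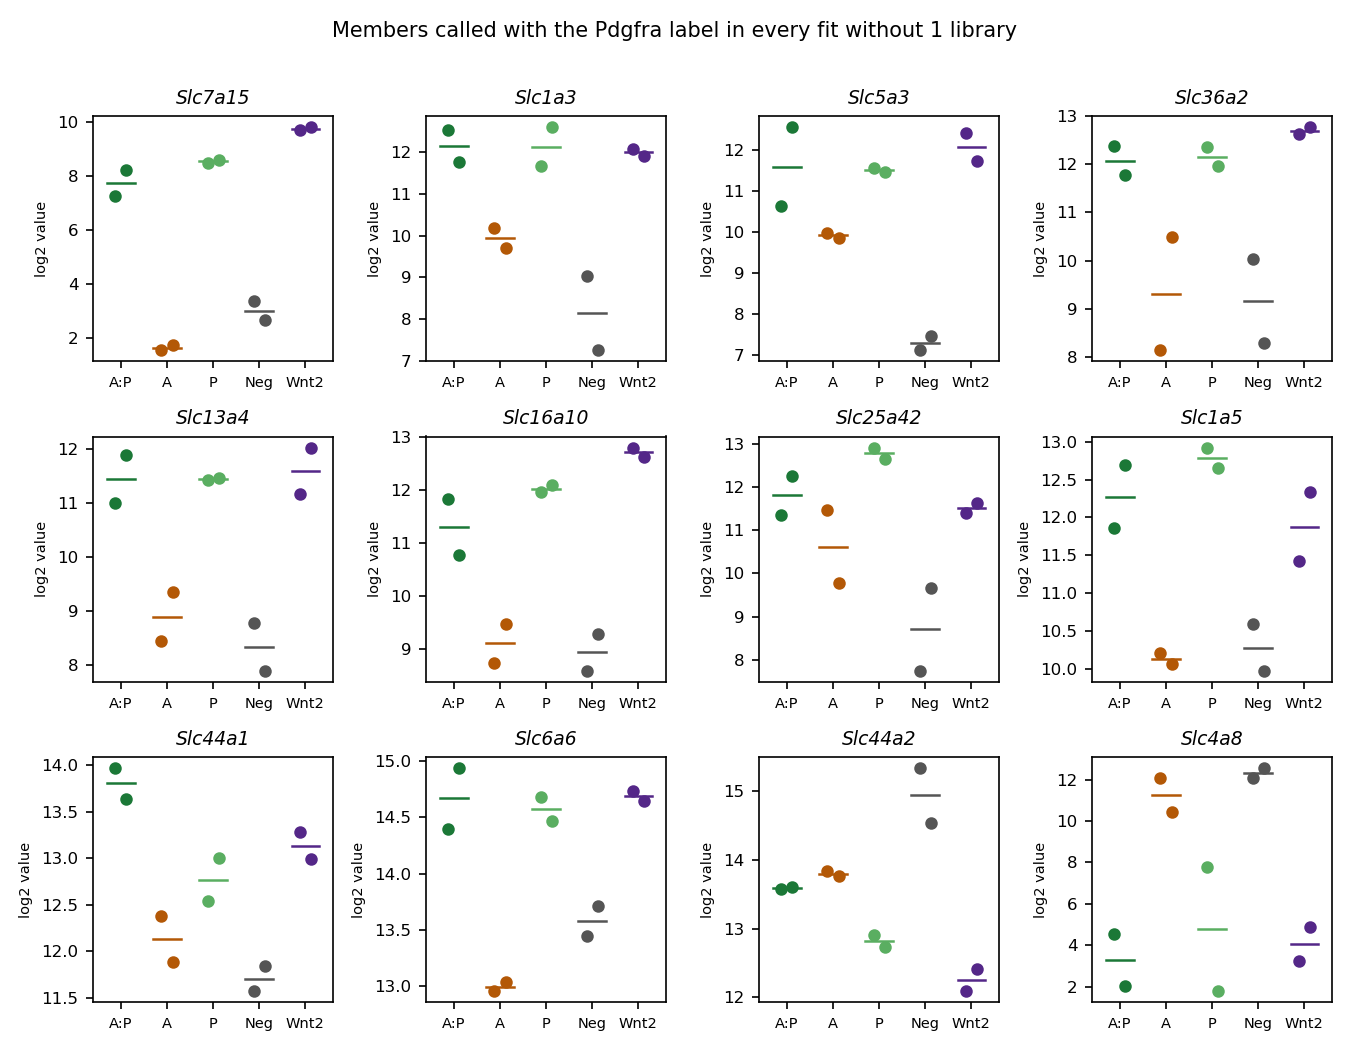
Points are single libraries and bars are means of 2, in log2 units, for the 12 members whose call across the Pdgfra label held in all 10 fits that left out 1 library (A:P, Axin2:Pdgfra; A, Axin2; P, Pdgfra; Neg, Negative). In the first 10 panels the means of Axin2:Pdgfra and Pdgfra are above those of Axin2 and Negative, while single libraries overlap in Slc25a42. The label difference runs from 1.34 for Slc6a6 to 3.09 for Slc1a3 on the log2 scale. Slc7a15 is left out of that span, since both Axin2 libraries and Negative 2 are at the lowest value. Slc44a2 and Slc4a8 go the other way.

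Other amino acid carriers were even or varied within groups. Slc38a2, a sodium-coupled carrier of neutral amino acids that cells adjust to amino acid supply, stayed between 12.43 and 13.52 in all 10 libraries, with a difference of 0.3 (95% interval -0.23 to 0.83, adjusted p = 0.55) across the Pdgfra label. Slc3a2, the heavy chain that brings several Slc7 exchangers to the cell surface, stayed between 11.82 and 12.92 and differed by 0.43 (95% interval -0.17 to 1.02, adjusted p = 0.427). Its partner Slc7a5, which carries large neutral amino acids, varied more between libraries of a group than between groups, from 9.94 to 4.1 in the 2 Axin2 libraries and from 10.25 to 5.65 in Pdgfra. Slc7a10, a carrier of small neutral amino acids, was lowest in Negative at 7 and 9.95 and reached 11.97 in Wnt2, but was not called by the F-test (adjusted p = 0.125). Slc6a2, the noradrenaline carrier, spread from 8.55 to 11.83 with no call (F-test adjusted p = 0.739). Slc6a17, known as a synaptic vesicle carrier of neutral amino acids, was called by the F-test (adjusted p = 0.0321) and named after its values were seen. It was at 10.52 and 10.35 in Axin2, the 2 libraries through which it entered the list. In Axin2:Pdgfra it was at 8.05 and 6.38, and at 1 to 6.33 in the other 6. Its F-test call held in 3 of 10 fits without 1 library.

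Among sugar and polyol carriers, the named glucose carriers were not called and 2 inositol carriers were. Slc2a1, the widespread facilitative glucose transporter, was at 10.87 and 11.5 in Axin2:Pdgfra, 11.83 and 10.45 in Axin2, 11.4 and 10.84 in Pdgfra, 10.76 and 11.53 in Negative and 11.22 and 11.6 in Wnt2. That is the smallest range of group means among the members, 0.29, and the difference across the Pdgfra label was 0.01 (95% interval -0.87 to 0.89, adjusted p = 0.993). Slc2a3, another glucose transporter, was at 1.55 and 8.5 in Pdgfra and at 1.55 and 8.17 in Wnt2, so its groups could not be ordered.

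Slc5a3, the sodium-coupled carrier of the osmolyte myo-inositol, lay at 10.64 and 12.57 in Axin2:Pdgfra, 9.98 and 9.86 in Axin2, 11.56 and 11.48 in Pdgfra, 7.11 and 7.47 in Negative and 12.42 and 11.75 in Wnt2. Negative was lowest, Axin2 next, and every library of the 3 other groups was above both. It differed by 2.96 ± 0.49 (SE, adjusted p = 0.00204) across the Pdgfra label and by -3.72 ± 0.56 (SE, adjusted p = 0.00191) in Negative against the other groups of that line, and both calls held in 10 of 10 fits without 1 library. The gene lies at the Mrps6 locus and shares 1.46% of its exon bases with it. Mrps6, which encodes a mitochondrial ribosomal protein, did not pass the test across the label, at -1.14 ± 1.11 (SE, adjusted p = 0.62). A second inositol carrier, the proton-coupled Slc2a13, was named after its values were seen. It was low in Axin2 alone, at 7.38 and 7.46 in Axin2, 9.8 and 10.1 in Axin2:Pdgfra, 10.34 and 10.67 in Pdgfra, 10.24 and 9.74 in Negative and 10.75 and 10.43 in Wnt2, and was called by the F-test (adjusted p = 0.0424). That call held in 3 of 10 fits without 1 library.

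Carriers numbered with the carboxylate families included 2 of 7 members called higher across the Pdgfra label and none lower. Slc16a10, whose cargo is aromatic amino acids and thyroid hormone, was listed at 11.83 and 10.78 in Axin2:Pdgfra, 8.74 and 9.48 in Axin2, 11.96 and 12.09 in Pdgfra, 8.59 and 9.28 in Negative and 12.8 and 12.62 in Wnt2. The order was Wnt2 highest, then Pdgfra and Axin2:Pdgfra, with Axin2 and Negative lowest and overlapping each other. It differed by 2.64 ± 0.41 (SE, adjusted p = 0.00153) across the label, and Wnt2 exceeded the mean of the other 4 groups by 2.37 ± 0.46 (SE, adjusted p = 0.0154), a call lost without Wnt2 1 or Wnt2 2 (adjusted p up to 0.358). Slc13a4, a sodium-coupled sulfate carrier, was at 11.01 and 11.89 in Axin2:Pdgfra, 8.44 and 9.35 in Axin2, 11.43 and 11.46 in Pdgfra, 8.77 and 7.89 in Negative and 11.17 and 12.03 in Wnt2. All 6 libraries of Axin2:Pdgfra, Pdgfra and Wnt2 were at 11.01 or more and all 4 of Axin2 and Negative at 9.35 or less, and the label difference was 2.84 ± 0.48 (SE, adjusted p = 0.00237). The lactate and pyruvate carrier Slc16a1 was not called (F-test adjusted p = 0.422), with values of 7.32 to 9.81 apart from Negative 2, where it was at that library's lowest value of 2.67.

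The upstream sequences of 4 members are shown because 3 of them, Slc1a3, Slc5a3 and Slc16a10, were higher with the Pdgfra label in every fit without 1 library and the fourth, Slc4a8, was lower in every one. Each is the 250 bases before the RefSeq start on GRCm38.p6, read 5′ to 3′ on the gene's strand, a later build than the mm9 of the files. Capitals mark 3 motifs on either strand: the TATA box letters TATAAA, the letters CCAAT, and the GC box letters GGGCGG.
Slc1a3: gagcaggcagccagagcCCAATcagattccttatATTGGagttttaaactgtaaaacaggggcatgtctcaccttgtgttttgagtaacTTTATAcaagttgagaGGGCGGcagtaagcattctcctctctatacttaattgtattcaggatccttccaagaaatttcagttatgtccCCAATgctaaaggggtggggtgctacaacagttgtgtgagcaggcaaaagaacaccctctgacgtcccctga
Slc5a3: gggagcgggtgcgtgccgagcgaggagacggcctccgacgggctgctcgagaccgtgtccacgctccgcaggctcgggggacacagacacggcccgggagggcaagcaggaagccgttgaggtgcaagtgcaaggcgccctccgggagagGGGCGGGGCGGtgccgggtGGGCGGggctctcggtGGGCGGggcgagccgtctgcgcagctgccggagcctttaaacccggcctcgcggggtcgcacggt
Slc16a10: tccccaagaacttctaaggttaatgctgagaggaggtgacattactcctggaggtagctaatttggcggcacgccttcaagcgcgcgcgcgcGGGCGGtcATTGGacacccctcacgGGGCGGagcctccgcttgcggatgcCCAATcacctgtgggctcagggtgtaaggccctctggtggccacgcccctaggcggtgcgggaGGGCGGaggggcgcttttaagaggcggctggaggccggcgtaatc
Slc4a8: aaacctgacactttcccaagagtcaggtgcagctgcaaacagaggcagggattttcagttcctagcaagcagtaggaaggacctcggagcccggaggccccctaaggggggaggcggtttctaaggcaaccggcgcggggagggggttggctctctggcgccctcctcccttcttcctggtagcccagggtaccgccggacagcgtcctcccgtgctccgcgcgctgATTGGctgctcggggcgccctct
Their positions are chr15:8710808-8711057 on the minus strand for Slc1a3, chr16:92058072-92058321 on the plus strand for Slc5a3, chr10:40142255-40142504 on the minus strand for Slc16a10 and chr15:100761497-100761746 on the plus strand for Slc4a8. CCAAT on either strand is found 3 times before Slc1a3, 2 times before Slc16a10, 1 time before Slc4a8 and not before Slc5a3. GGGCGG is found 4 times before Slc5a3, 3 times before Slc16a10, 1 time before Slc1a3 and not before Slc4a8, and TATAAA 1 time before Slc1a3. Over 27025 gene symbols, each taken at its first listed start, 34.5% of such windows hold CCAAT, 32.9% GGGCGG and 13% TATAAA. Over the 135 members with a listed start the shares are 34.8%, 62.2% and 7.41%. TGATGNAA and TGGAAA, searched on both strands, are not in these 4 windows and are in 3.53% and 18.7% of all. A match of letters is a description of the sequence only.

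Carriers of fatty acids, bile acids and choline held 5 called members of 12, 4 higher and 1 lower across the Pdgfra label. The median difference of the class was 1.4. Slc44a1 and Slc44a2, a pair of choline transporter-like proteins, went in opposite directions. Slc44a1 was at 13.97 and 13.64 in Axin2:Pdgfra, 12.38 and 11.88 in Axin2, 12.54 and 13 in Pdgfra, 11.57 and 11.84 in Negative and 13.28 and 12.99 in Wnt2, with Negative and Axin2 lowest, and differed by 1.37 ± 0.26 (SE, adjusted p = 0.005).

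Slc44a2 was at 15.33 and 14.54 in Negative, 13.58 and 13.6 in Axin2:Pdgfra, 13.84 and 13.76 in Axin2, 12.91 and 12.73 in Pdgfra and 12.09 and 12.41 in Wnt2. Negative was highest and Wnt2 lowest, and no 2 of the 5 groups overlapped. This member had the smallest F-test p of the class (adjusted p = 0.00111). It was lower by -2.12 ± 0.32 (SE, adjusted p = 0.0034) in Pdgfra than in Negative, a call that held in 10 of 10 fits without 1 library, and lower by -1.53 ± 0.25 (SE, adjusted p = 0.00547) in Wnt2 than in the mean of the others, a call lost without either Wnt2 library (adjusted p up to 0.15). Axin2:Pdgfra and Axin2 differed by -0.21 (95% interval -0.89 to 0.48, adjusted p = 0.857).

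Slc27a6 and Slc27a3 belong to the fatty acid transport proteins, which also join fatty acids to coenzyme A. Slc27a6 was at 8.91 and 10.71 in Axin2:Pdgfra, 4.91 and 3.7 in Axin2, 8.8 and 8.96 in Pdgfra, 6.24 and 5.97 in Negative and 10.21 and 8.6 in Wnt2, and Slc27a3 at 10.64 and 10.02 in Axin2:Pdgfra, 6.22 and 7.7 in Axin2, 8.5 and 10.19 in Pdgfra, 5.92 and 8.05 in Negative and 9.77 and 8.78 in Wnt2. In Slc27a6 the labelled libraries were at 8.8 or more and the unlabelled ones at 6.24 or less, a difference of 4.14 ± 0.92 (SE, adjusted p = 0.0142) that was lost without Axin2:Pdgfra 2, Pdgfra 1 or Pdgfra 2 (adjusted p up to 0.065) and was 3.29 with values under 6 raised to 6. The call of Slc27a3, 2.86 ± 0.81 (SE, adjusted p = 0.0494), held in 1 of 10 such fits and reached an adjusted p of 0.177. Slc27a1, of the same family, was at 9.93 and 6.59 in Pdgfra and at 8.33 and 4.65 in Wnt2, and was not called (F-test adjusted p = 0.395). Slc10a6, a carrier of sulfated steroids, was at 11.54 and 13.48 in Axin2:Pdgfra, 10.97 and 8.76 in Axin2, 12.15 and 11.64 in Pdgfra, 10.7 and 8.92 in Negative and 12.9 and 12.71 in Wnt2 and differed by 2.37 ± 0.56 (SE, adjusted p = 0.0202), in 5 of 10 fits without 1 library (adjusted p up to 0.0985).

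The 31 mitochondrial carriers of the Slc25 family, the largest family here, gave 1 call across the Pdgfra label. Slc25a42, which brings coenzyme A into mitochondria, was at 11.36 and 12.26 in Axin2:Pdgfra, 11.46 and 9.78 in Axin2, 12.91 and 12.65 in Pdgfra, 7.75 and 9.66 in Negative and 11.41 and 11.63 in Wnt2. Pdgfra was highest and Negative lowest, with a label difference of 2.63 ± 0.5 (SE, adjusted p = 0.00521) and a difference of 4.08 ± 0.7 (SE, adjusted p = 0.00596) between Pdgfra and Negative. Axin2 1, at 11.46, was above Axin2:Pdgfra 1, at 11.36. The class median across the label was -0.07. The phosphate carrier Slc25a3, named after its values were seen, stayed between 12.83 and 13.65 in all 10 libraries. The adenine nucleotide translocases Slc25a4 and Slc25a5 differed across the label by -0.66 (95% interval -1.29 to -0.02, adjusted p = 0.228) and -0.15 (95% interval -0.91 to 0.61, adjusted p = 0.86). Slc25a37, the iron importer of mitochondria, was at 11.51 and 10.28 in Negative and at 11.72 and 9.87 in Pdgfra, with no call (F-test adjusted p = 0.157).

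**Figure D3:**
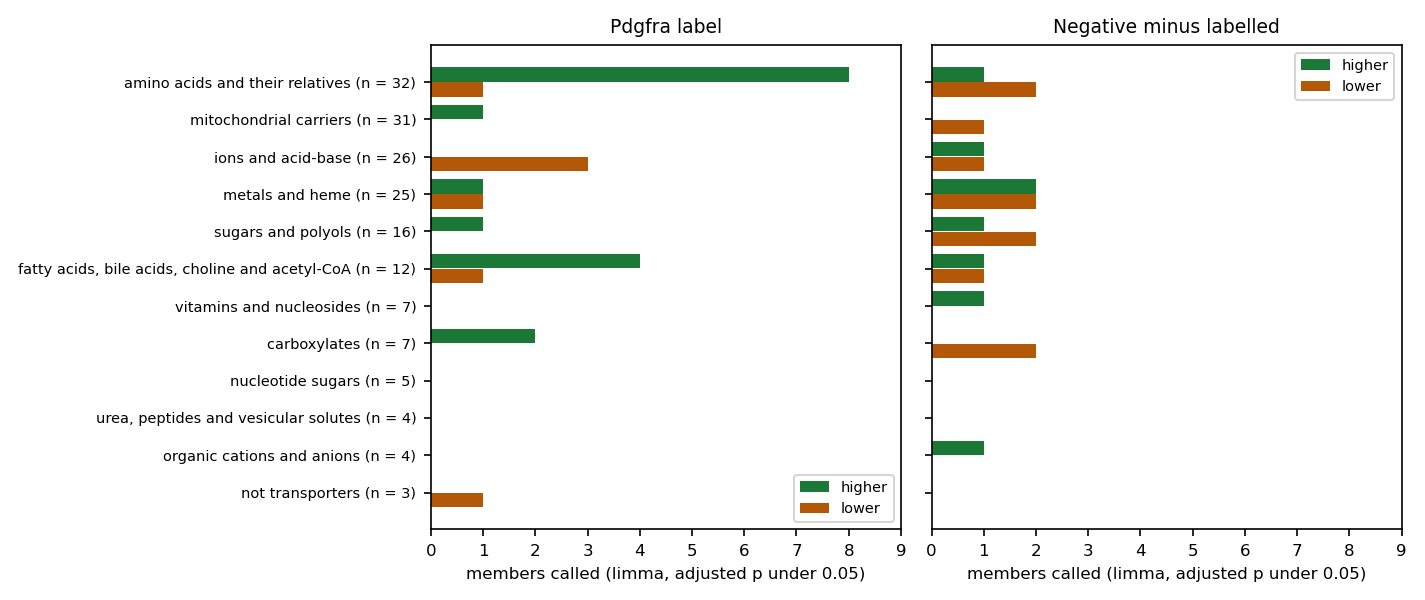
Bars count the members called higher (green) or lower (orange) by limma in each cargo class, across the Pdgfra label on the left and in Negative against the other 3 groups of the line on the right, with the number of members in parentheses. Across the label the amino acid class has 8 higher and 1 lower and the mitochondrial class 1 higher, while ions and acid-base has 3 lower.

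Carriers of ions and acid equivalents gave 3 of the 7 members that were lower with the Pdgfra label, of 26 in the class with none higher, although the class median was 0.42. Slc4a8, a sodium-driven exchanger of chloride and bicarbonate, was listed at 4.55 and 2.06 in Axin2:Pdgfra, 12.06 and 10.45 in Axin2, 7.8 and 1.79 in Pdgfra, 12.09 and 12.55 in Negative and 3.23 and 4.91 in Wnt2. Axin2 and Negative were above 10 in all 4 libraries, and the other groups lay between 1.79 and 7.8. Axin2:Pdgfra 2 was at its library's lowest value. The difference of -7.74 ± 1.32 (SE, adjusted p = 0.00272) depends on how such low values are treated, and was -5.34 with an adjusted p of 0.000575 when values under 6 were raised to 6. Both parts were called, Axin2:Pdgfra minus Axin2 at -7.95 ± 1.87 (SE, adjusted p = 0.0409) and Pdgfra minus Negative at -7.53 ± 1.87 (SE, adjusted p = 0.045), and stayed called at -5.26 and -5.42 with low values so raised. In fits that each left out 1 library these parts ranged from -9.2 to -6.71 and from -10.53 to -4.52. The first call held in 5 of 10 such fits and the second in 3 of 10. Slc4a5, a sodium bicarbonate cotransporter, was at 4.55 and 2.06 in Axin2:Pdgfra, 10.54 and 9.34 in Axin2, 10.05 and 5.77 in Pdgfra, 11.44 and 10.29 in Negative and 2.29 and 7.25 in Wnt2. Its groups overlapped through Pdgfra 1, and the difference of -4.8 ± 1.32 (SE, adjusted p = 0.044) held in 4 of 10 fits without 1 library (adjusted p up to 0.165). Axin2:Pdgfra 2 was at its library's lowest value here too, and the difference was -3.39 (adjusted p = 0.0363) with values under 6 raised to 6.

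Slc12a2, the sodium-potassium-chloride cotransporter that loads cells with chloride, was at 9.23 and 9.71 in Axin2:Pdgfra, 11.45 and 11.68 in Axin2, 11.02 and 10.6 in Pdgfra, 11.83 and 10.98 in Negative and 11.99 and 11.54 in Wnt2. Axin2:Pdgfra was lowest, while Pdgfra overlapped Negative. Its label difference of -1.35 ± 0.38 (SE, adjusted p = 0.0494) held in 1 of 10 fits without 1 library, with an adjusted p of up to 0.151. Across the same label 8 of 10 pericyte markers were lower, with a median difference of -3.74. The log2 of the summed level of the pericyte list was 18.21 and 18.55 in Axin2 and 16.51 and 17.59 in Negative. It was 13.54 to 15.02 in the other 6 libraries, and no marker of that list was at the lowest value. Smooth muscle markers were lower for 4 of 8, with sums of 17.67 and 17.68 in Axin2 and 15.2 to 16.14 in the rest. Of 14 epithelial markers 5 were lower across the label, Ager, Cdh1, Hopx, Krt18 and Nkx2-1, as were 4 of 6 mesothelial markers (1 was higher) and the endothelial markers Eng and Esam, 2 of 12. The part of these cell types in the lower values of Slc4a8, Slc4a5 and Slc12a2 was not tested.

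Several carriers known from fibroblasts and muscle did not pass. The sodium-calcium exchanger Slc8a1 was highest in Wnt2, at 11.43 and 10.92, and lowest in Negative 2, at 5.55 (F-test adjusted p = 0.126). Slc24a3, an exchanger of sodium for calcium and potassium, was at 12.07 and 12.06 in Wnt2 and at 8.33 to 11.33 elsewhere (F-test adjusted p = 0.156). Across the Pdgfra label the bicarbonate cotransporter Slc4a4 differed by 0.76 (95% interval -0.69 to 2.22, adjusted p = 0.581), and the phosphate carriers Slc20a1 and Slc20a2 by 0.14 (95% interval -0.77 to 1.05, adjusted p = 0.901) and 0.43 (95% interval -1.12 to 1.99, adjusted p = 0.792). These intervals leave room for differences in either direction. Slc9a3r2, the scaffold that anchors sodium-proton exchangers and is no carrier, was at 12.25 and 12.91 in Axin2:Pdgfra, 14.39 and 14.01 in Axin2, 13.92 and 13.44 in Pdgfra, 13.92 and 14.47 in Negative and 12.2 and 12.12 in Wnt2. Axin2:Pdgfra and Wnt2 were low and did not overlap the other 3 groups, with -1.62 ± 0.34 (SE, adjusted p = 0.0266) for Axin2:Pdgfra against Axin2 and -1.51 ± 0.27 (SE, adjusted p = 0.00983) for Wnt2 against the mean of the others. The first call was lost without Axin2:Pdgfra 1, Axin2 1 or Axin2 2 (adjusted p up to 0.211), and the second without either Wnt2 library (adjusted p up to 0.152).

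The 2 parts of the Pdgfra label can be set side by side because they share no library. Axin2:Pdgfra minus Axin2 called 4 members higher and 2 lower, beside 0.924% and 1.38% of all genes tested and 1.29% and 1.93% of genes with the same level rule. Pdgfra minus Negative called 8 higher and 6 lower, beside 2.03% and 0.875% of all and 2.84% and 1.19% of genes with the same level rule. Its lower calls included Slc37a1 at -9.04 ± 1.87 (SE, adjusted p = 0.0189), or -6.78 with values under 6 raised to 6. Slc39a4, at -5.02 ± 1.26 (SE, adjusted p = 0.0466), was also called across the whole label, at -3.42 ± 0.89 (SE, adjusted p = 0.0332). Slc48a1 was at -1.9 ± 0.45 (SE, adjusted p = 0.0389). Slc1a5 and Slc4a8 were called in both, 33.3% of the first list and 14.3% of the second. Across the 172 members the 2 differences had a Pearson correlation of 0.43 and the same sign in 114, 66.3%, where the 10108 genes with the same level rule gave 0.39 and 60.5%. The members share their libraries and normalization, so this correlation is a description. The interaction, which asks whether these 2 differ, called 0 members by limma, with 19 at an unadjusted p under 0.05, and 0 of all genes. Few of these calls were stable. Axin2:Pdgfra minus Axin2 called 0 members without Axin2 1 or without Axin2 2 (24 and 33 at an unadjusted p under 0.05 by limma), 1 without Axin2:Pdgfra 1, 2 without Axin2:Pdgfra 2, 3 without Wnt2 1, 2 without Wnt2 2 and 14 both without Negative 0 and without Negative 2. Pdgfra minus Negative called 3 without Pdgfra 1, 2 without Pdgfra 2, 9 without Negative 2 and 7 both without Wnt2 1 and without Wnt2 2.

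**Figure D4:**
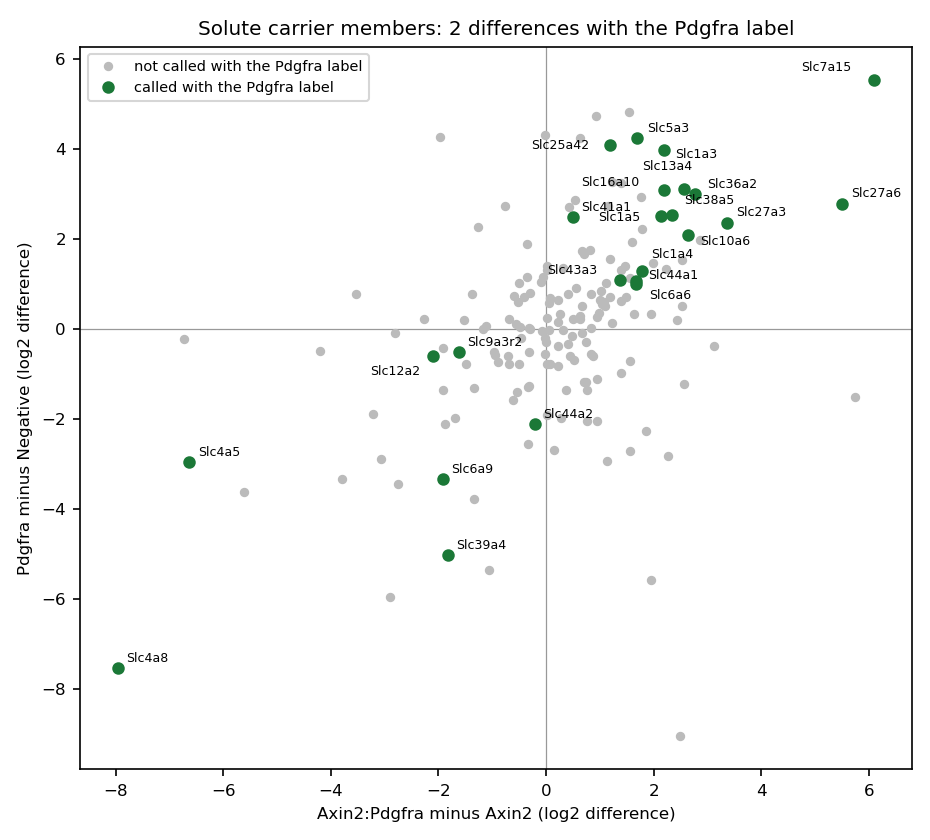
Each point is 1 of 172 members, with the log2 difference Axin2:Pdgfra minus Axin2 on the x axis and Pdgfra minus Negative on the y axis. Members called across the Pdgfra label (green) lie in the upper right or the lower left, and 114 of the 172 points have the same sign on both axes.

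Negative cells were set against the mean of the other 3 groups of their line. Over all members that comparison called 8 higher and 11 lower, beside 1.92% and 2.7% of all genes tested and 2.59% and 3.7% of genes with the same level rule. The higher direction rested on both Negative libraries: 2 were higher and 12 lower without Negative 0, and 1 and 9 without Negative 2. The calls were spread over the cargo classes, and of 25 members in the metal and heme families 2 were higher and 2 lower, with a class median of -0.09. Slc39a4, a zinc importer, was at 12.73 and 12.33 in Negative, 7.35 and 6.74 in Axin2:Pdgfra, 10.5 and 7.25 in Axin2, 8.8 and 6.22 in Pdgfra and 6.54 and 6.74 in Wnt2. Only Axin2 1, at 10.5, came within 2 of the Negative libraries, and the difference was 4.72 ± 1.03 (SE, adjusted p = 0.0171). Slc39a8, which imports zinc and manganese, was at 13.53 and 13.09 in Negative, 5.67 and 10.68 in Axin2:Pdgfra, 10.16 and 9.95 in Axin2, 11.72 and 10.66 in Pdgfra and 9.87 and 10.52 in Wnt2 and differed by 3.5 ± 0.91 (SE, adjusted p = 0.0427). Its low value in Axin2:Pdgfra 1 stood apart from the 10.68 of Axin2:Pdgfra 2. Slc39a4 was lost without Negative 0 or Negative 2 (adjusted p up to 0.104), and Slc39a8 held in 2 of 10 fits without 1 library (adjusted p up to 0.181).

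Of the 3 magnesium carriers of the Slc41 family, 2 were lower in Negative. Slc41a3 was at 10.68 and 8.96 in Negative, 12.98 and 12.88 in Axin2:Pdgfra, 12.31 and 11.89 in Axin2, 10.94 and 12.22 in Pdgfra and 11.62 and 11.32 in Wnt2, a difference of -2.38 ± 0.49 (SE, adjusted p = 0.0121) that was lost without Negative 2 (adjusted p = 0.155). Slc41a1 was at 9.75 and 10.02 in Negative, 11.78 and 11.13 in Axin2:Pdgfra, 10.26 and 11.64 in Axin2, 12.24 and 12.49 in Pdgfra and 10.86 and 11.24 in Wnt2, with -1.71 ± 0.46 (SE, adjusted p = 0.0488) in 2 of 10 fits without 1 library (adjusted p up to 0.133). The third, Slc41a2, was high instead in Negative, at 9.8 and 10.11, and low in Pdgfra, at 5.29 and 3.91, and Pdgfra minus Negative was -5.35 ± 1.33 (SE, adjusted p = 0.0453), in 1 of 10 such fits (adjusted p up to 0.191), and -3.95 without a call (adjusted p = 0.0622) with values under 6 raised to 6. Slc48a1, a heme transporter of endosomes and lysosomes, had the smallest F-test p among the metal carriers (adjusted p = 0.0279). It was low in Pdgfra, at 9.88 and 10.96 in Pdgfra, 12.47 and 12.65 in Axin2:Pdgfra, 12.64 and 12.45 in Axin2, 12.43 and 12.2 in Negative and 11.44 and 11.93 in Wnt2. Its F-test call held in 4 of 10 fits without 1 library.

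Other iron and zinc genes did not pass. Slc40a1, the iron exporter ferroportin, and Slc11a2, an importer of ferrous iron, had F-test adjusted p-values of 0.537 and 0.443. The macrophage metal transporter Slc11a1 was at 10.35 and 11.26 in Axin2, the 2 libraries through which it entered the list, and at 1.55 to 8.67 in the rest (F-test adjusted p = 0.0713). Zinc exporter Slc30a1 was highest in Negative, at 11.31 and 11.16, and lowest in Axin2:Pdgfra, at 9.21 and 7.53 (F-test adjusted p = 0.0901). The zinc importer Slc39a14 spread over 8.61 and 11.69 in the 2 Negative libraries alone.

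Further members high in Negative carry other cargo, beside Slc44a2 at 1.53 ± 0.26 (SE, adjusted p = 0.00423) and Slc4a8 at 5.87 ± 1.52 (SE, adjusted p = 0.042). Slc37a1, an exchanger of glucose-6-phosphate and phosphate, was at 12.42 and 13.14 in Negative, 6.47 and 9.37 in Axin2:Pdgfra, 6.76 and 4.1 in Axin2, 1.55 and 5.93 in Pdgfra and 4.07 and 7.73 in Wnt2, with Pdgfra 1 at its library's lowest value, and differed by 7.08 ± 1.53 (SE, adjusted p = 0.0168). Slc52a3, a riboflavin transporter, entered the list through Negative alone, at 12.22 and 10.28 in Negative, 1.7 and 2.06 in Axin2:Pdgfra, 7.47 and 3.87 in Axin2, 6.89 and 8.94 in Pdgfra and 2.06 and 5.55 in Wnt2. Both Axin2:Pdgfra libraries were at the lowest value, so no fold against that group is given. Slc22a23, an organic ion carrier family member with no settled cargo, was at 12.76 and 13.05 in Negative, 9.68 and 10.14 in Axin2:Pdgfra, 10.43 and 7.85 in Axin2, 10.08 and 11.65 in Pdgfra and 11.75 and 11.54 in Wnt2 and differed by 2.93 ± 0.63 (SE, adjusted p = 0.0157). Slc43a2, a carrier of large neutral amino acids, was at 14.07 and 13.97 in Negative, 13.32 and 13.01 in Axin2:Pdgfra, 12.94 and 11.88 in Axin2, 12.86 and 12.47 in Pdgfra and 13.11 and 13.39 in Wnt2, a difference of 1.27 ± 0.3 (SE, adjusted p = 0.0289). The difference of Slc4a8 ranged from 4.87 to 6.87 in fits that each left out 1 library, and its call held in 2 of 10 of them. With values under 6 raised to 6 the differences were 4.27 for Slc4a8 and 6.01 for Slc37a1, both still called. The calls in Negative of Slc37a1, Slc52a3, Slc22a23 and Slc43a2 were all lost without Negative 0 and without Negative 2. Slc37a1 and Slc22a23 each held in 8 of 10 fits without 1 library. Slc43a2 held in 5 of 10 and Slc52a3 in 4 of 10, so these 2 were also lost without libraries of other groups.

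Lower in Negative, beside the amino acid, inositol, sulfate and coenzyme A carriers above, were Slc5a6 and Slc26a11. Slc5a6, grouped by number with sugar carriers, transports biotin and pantothenate and was at 1.79 and 5.55 in Negative, 8.87 and 9.83 in Axin2:Pdgfra, 8.96 and 9.77 in Axin2, 8.76 and 7.21 in Pdgfra and 5.93 and 6.43 in Wnt2. Wnt2 was low as well, and Negative 0 was at its library's lowest value. Slc26a11, a sulfate carrier, was at 6.64 and 2.67 in Negative, 9.37 and 9.3 in Axin2:Pdgfra, 8.4 and 8.4 in Axin2, 9.54 and 9.22 in Pdgfra and 9.02 and 10.04 in Wnt2, with Negative 2 at the lowest value. Their calls, -5.23 ± 1.25 (SE, adjusted p = 0.0287) and -4.38 ± 1.06 (SE, adjusted p = 0.0302), held in 5 of 10 and 2 of 10 fits without 1 library (adjusted p up to 0.125 and 0.238). With values under 6 raised to 6 they were -2.9 without a call (adjusted p = 0.0517) and -2.72 (adjusted p = 0.0452). Of the 19 members called in Negative, Slc1a3, Slc5a3 and Slc44a2 held in all 10. The count was 9 without Axin2 2, 11 without Pdgfra 1, 9 without Pdgfra 2 and 10 without Negative 2. Without Negative 2 and Wnt2 2, the libraries with low Xist, 7 members were called in Negative, and without Negative 2 and Axin2:Pdgfra 2, those with most genes at the lowest value, 12 were.

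Epithelial and erythroid markers were highest in the same cells. Of 14 epithelial markers 5 were higher in Negative. The log2 of the summed level of the list was 17.71 and 17.85 there and 16.61 and 17.2 in Pdgfra. It was 14.7 to 16.35 in the other 6 libraries. Foxj1 was at the lowest value in Axin2:Pdgfra 1 and Axin2 2, and Epcam in Pdgfra 1. Of 6 erythroid markers in the files 5 were higher in Negative, with sums of 16.03 and 16.51 against 8.29 to 11.31. Of 11 immune markers in the files 1 was higher and of 12 endothelial markers 0 (limma). Fibroblast markers were lower in Negative for 11 of 14, Pdgfra of the sorting reporter among them, with a median difference of -2.3. Their sums were 16.36 and 16.63 there against 17.28 to 18.75 elsewhere. Of 10 pericyte markers 3 were higher in Negative, and of 6 mesothelial markers in the files 2 were. The part of any of these cell types in the values of the members higher or lower in Negative was not tested.

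**Figure D5:**
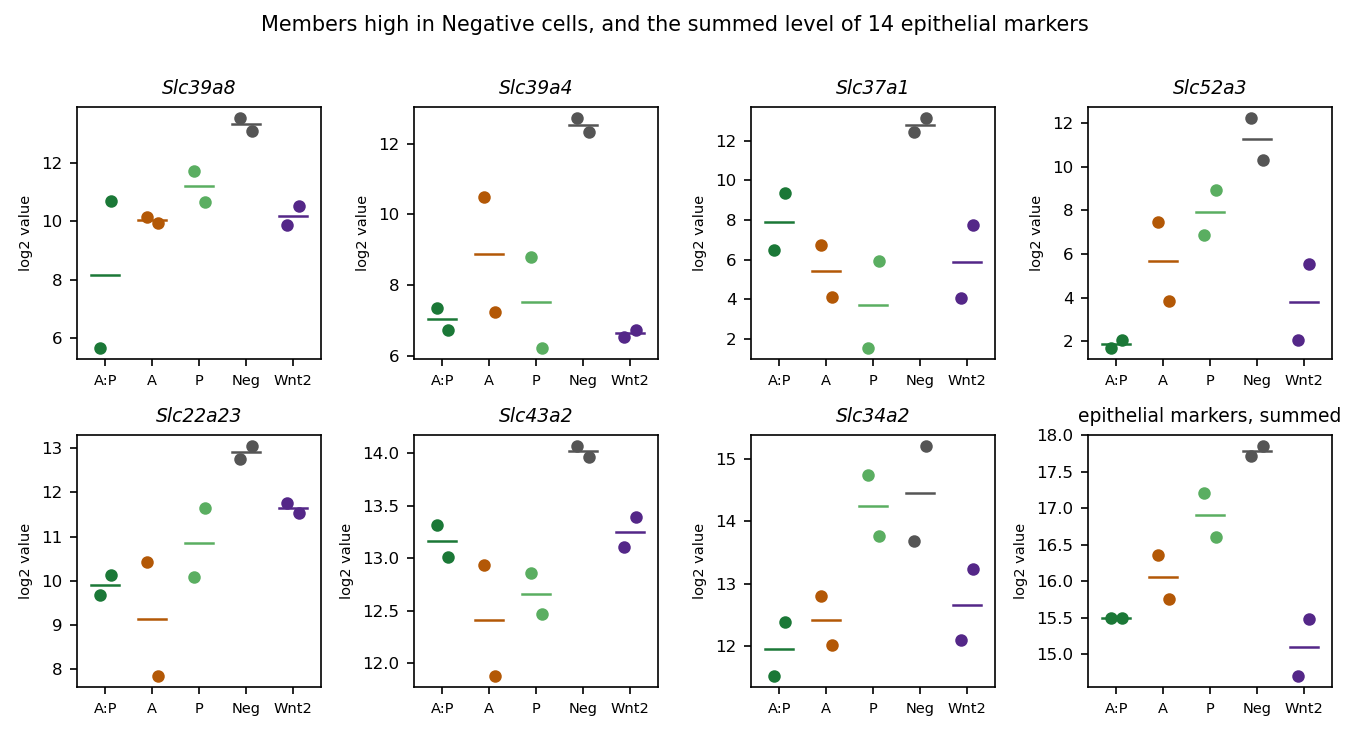
Points are single libraries and bars are means of 2, in log2 units, for 7 members high in Negative and for the log2 of the summed level of 14 epithelial markers (A:P, Axin2:Pdgfra; A, Axin2; P, Pdgfra; Neg, Negative). Negative is highest in the first 6 panels and in the marker sum, at 17.71 and 17.85, while Slc34a2 is high in both Negative and Pdgfra.

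The Axin2 label called 1 member higher and 3 lower, beside 0.501% and 1.14% of all genes tested and 0.693% and 1.59% of genes with the same level rule. Slc34a2, the type 2 cell phosphate carrier, was at 11.52 and 12.38 in Axin2:Pdgfra, 12.81 and 12.01 in Axin2, 14.74 and 13.76 in Pdgfra, 13.69 and 15.21 in Negative and 12.1 and 13.23 in Wnt2. Pdgfra and Negative were at 13.69 or more in all 4 libraries and the Axin2-labelled groups at 12.81 or less, a difference of -2.17 ± 0.38 (SE, adjusted p = 0.0154) that was lost without Axin2 2, Pdgfra 1 or Negative 2 (adjusted p up to 0.145). Over the same label 6 of 14 epithelial markers were lower, Sftpc among them at -1.23 ± 0.25 (SE, adjusted p = 0.0284), and their part in the value of Slc34a2 was not tested. The other 3 calls of the Axin2 label were Slc22a23 at -2.36 ± 0.54 (SE, adjusted p = 0.0462), Slc52a3 with both Axin2:Pdgfra libraries at the lowest value, and Slc41a3, higher by 1.82 ± 0.42 (SE, adjusted p = 0.0466). They held in 2 of 10, 0 of 10 and 1 of 10 fits without 1 library, with adjusted p up to 0.159, 0.18 and 0.216. The label called 0 members by limma without Axin2 2, Pdgfra 1 or Negative 2 (28, 23 and 37 at an unadjusted p under 0.05), 1 without Pdgfra 2, Wnt2 1 or Wnt2 2, and 2 without Axin2 1, Axin2:Pdgfra 1 or Axin2:Pdgfra 2.

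In Wnt2 the calls were Slc16a10 higher and Slc44a2 and Slc9a3r2 lower, as given above, beside 0.719% of all genes tested called higher and 1.44% lower (0.999% and 1.99% of genes with the same level rule). The median difference was 0.09 over the members and 0.13 over all genes tested. The comparison called 0 members by limma without Wnt2 1 or without Wnt2 2 (15 and 16 at an unadjusted p under 0.05), 8 without Negative 0 and 6 without both Negative 2 and Axin2:Pdgfra 2. The 12 members whose Pdgfra label call held throughout include 10 that were higher, and in all 10 of them both Wnt2 libraries lay above both libraries of Negative. Those 10 were chosen by a difference that subtracts Negative, and Slc7a15 entered the list through Wnt2 alone. No share over all genes was computed, so the 10 say nothing separate about Wnt2. In Wnt2 against the other groups, 7 of 10 pericyte markers, 4 of 8 smooth muscle markers and 3 of 14 epithelial markers were lower, and of 14 fibroblast markers 2 were higher and 5 lower. Pericyte sums were 14.04 and 13.54 in Wnt2 against 14.51 to 18.55 elsewhere, and their part in the Wnt2 values was not tested.

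In the classes of vitamins and nucleosides, nucleotide sugars, peptides and organic ions, the F-test called Slc52a3 and Slc22a23, given above. Slc23a2, a sodium-coupled vitamin C carrier, stayed between 11.08 and 12.64, with -0.14 (95% interval -0.82 to 0.53, adjusted p = 0.853) across the Pdgfra label. Slc29a1, an equilibrative nucleoside transporter, was highest in Axin2:Pdgfra, at 11.96 and 12.49, and lowest in Negative, at 10.13 and 10.55, and was not called (F-test adjusted p = 0.127). Among nucleotide sugar carriers Slc35a1, which brings CMP-sialic acid into the Golgi, had the smallest F-test p (adjusted p = 0.0789). It was low in Axin2, at 7.72 and 9.25, and at 11.63 and 11.55 in Wnt2. Slc35a5 had an F-test adjusted p of 0.456. Of the 4 peptide and vesicular members none was called, and the lysosomal histidine and peptide carrier Slc15a4 had the smallest F-test p (adjusted p = 0.271). Slc15a2, a peptide carrier, was between 5.08 and 9.8 (F-test adjusted p = 0.344). Slc22a3, a carrier of organic cations, was at 7.37 and 7.69 in Negative and up to 11.14 in Wnt2, without a call (F-test adjusted p = 0.159).

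Genes that serve the carriers moved in part. Among 20 pump genes that set the sodium, proton and calcium gradients, 2 were lower across the Pdgfra label, against 2.93% of all genes tested. They were Atp1b1 and Atp1b2, beta subunits of the sodium pump, at -3.07 ± 0.8 (SE, adjusted p = 0.0341) and -2.33 ± 0.46 (SE, adjusted p = 0.00738). Of 14 chaperones and scaffolds in the files 0 were higher and 2 lower, Slc9a3r2, which is also a member, and Wnk1, a kinase that regulates chloride cotransporters, at -0.92 ± 0.23 (SE, adjusted p = 0.0269). Of 22 solute carriers under other symbols 1 was higher and 1 lower, the organic anion carriers Slco5a1 at 5.32 ± 1.24 (SE, adjusted p = 0.0187) and Slco3a1 at -2.03 ± 0.29 (SE, adjusted p = 0.000877).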

How the data were processed

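RNA-seq values of 10 libraries, 2 for each of 5 sorted lineages, were used as the authors deposited them, 1 log2 value per Ensembl gene. The log2 scale was inferred from the values. STAR, limma and the mouse build mm9 are named without versions, per the submitters' processing notes, and neither the counter, its strand setting nor the annotation is given in the sources used here. Distributions are near-identical between libraries, so shifts of the whole transcriptome cannot be seen. Depth is unknown.

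Symbols were matched for 14720 of 14854 identifiers. Genes with 6 or more in at least 2 libraries, 14177, entered 1 limma model (limma 3.58.1 in R 4.3.3, trend and robust, 5 residual degrees of freedom), with Benjamini-Hochberg adjustment over all of them and a threshold of 0.05. All 172 members passed. The script was tested on simulated data. Groups and replicate numbers come from the labels; the library titled as EGFP was placed in Pdgfra by its title and lineage label.

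The members and lists were chosen with earlier results of these data known. In each comparison the text names members past the threshold, up to 10 a direction by size, though not always with their value in that comparison. It also names the smallest F-test p in each cargo class and a set list of carriers. Others are named after their values were seen. Cargo classes follow family numbers. Marker lists covered fibroblasts, pericytes, smooth muscle, endothelial, epithelial, immune, erythroid, mesothelial and Schwann or neuronal cells; of the mesothelial markers 1 of 6 was higher and 4 lower across the Pdgfra label, and of the Schwann and neuronal markers 0 of 4 higher and 1 lower. Exon overlap was computed from GENCODE M21 and upstream sequences are RefSeq's, of GRCm38.p6. Alternatives changed the filter, low values, centring, variance estimate, replicate block, index sequence, mouse lines and libraries. Results for some genes on the fixed lists are not reported here.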

Additional observations from a re-analysis of the deposited data

How the results depend on the processing

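No call of a member changed direction under the alternatives run. Dropping limma's variance trend and robust fit left 1 for the F-test, 8 for the Pdgfra label, 2 for Axin2:Pdgfra minus Axin2, 1 for Pdgfra minus Negative, 0 for the Axin2 label (26 at an unadjusted p under 0.05), 2 for Negative and 1 for Wnt2. With 1 mouse line only, Axin2:Pdgfra minus Axin2 gave 3, Pdgfra minus Negative 8 and the Axin2 label 2. Raising values under 6 to 6 left 2 for the Axin2 label, and a term for the second index sequence left 1. The replicate numbers did not pair the samples: the correlation of deviations of same-numbered libraries was -0.06 to 0.03 over 6 pairs, 0 of them over 0.1. With a replicate block the counts were 25 for the F-test, 23 for the Pdgfra label (19 higher, 4 lower), 9 for Axin2:Pdgfra minus Axin2, 10 for Pdgfra minus Negative, 5 for the Axin2 label, 12 for Negative (2 higher, 10 lower) and 4 for Wnt2.

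Leaving out 1 library at a time gave 13 to 33 for the F-test, 14 to 24 for the Pdgfra label, 0 to 14 for Axin2:Pdgfra minus Axin2, 2 to 16 for Pdgfra minus Negative, 0 for the interaction, 0 to 6 for the Axin2 label, 9 to 16 for Negative and 0 to 8 for Wnt2, and 162 to 172 members. Chosen after seeing the data, leaving out the 2 libraries with most genes at the lowest value gave 12 for Negative and 6 for Wnt2. Leaving out the 2 with high Y-linked transcripts gave 14 for the F-test, 9 for Pdgfra minus Negative, 0 for the Axin2 label (29 at an unadjusted p under 0.05) and 7 for Negative. The cause of these changes was not tested, beyond the smaller number of samples. A threshold of 8 gave 198 members, one of 10 gave 133, a single library sufficed for 197, and both libraries of a lineage were at 9 or more for 145.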
